A study of Homo sapiens with 12 samples.

Results

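The genes described here are targets of the hypoxia-inducible factors (HIF) and enzymes of glycolysis, measured in 3 human cancer cell lines. A fixed list of 40 gene symbols was looked up in the deposited expression table, and 39 of them had a row among its 20545 symbols; EGLN3 was not analysed here. The members fall into 3 groups by role: 7 HIF regulators, 17 enzymes of glycolysis and glucose carbon use, and 15 other HIF targets. The rule uses the symbols alone and no measured value, but the members were chosen with earlier results of these data known.

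HIF is a transcription factor of an alpha subunit (HIF1A or EPAS1) and a constitutive partner (ARNT). In oxygenated cells the prolyl hydroxylases EGLN1 and EGLN2 mark the alpha subunit, VHL then directs its destruction, and the asparaginyl hydroxylase HIF1AN blocks its coactivators. These hydroxylases use iron, oxygen, 2-oxoglutarate and ascorbate, and most control of HIF1A acts on the protein, which an RNA array does not measure. Stabilised HIF raises transcripts for glucose transport, glycolysis, angiogenesis, pH control and mitophagy.

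The lines were HCT116 (colon carcinoma), HL60 (promyelocytic leukaemia) and SNU398 (hepatocellular carcinoma). Each was measured after a treatment labelled combination and after 5-Aza-CdR alone, with 2 arrays in each of the 6 groups and 12 arrays in all. 5-Aza-CdR (5-aza-2'-deoxycytidine, decitabine) is a cytidine analogue that traps DNA methyltransferases, and the combination is read here as containing it, although its label does not list its components. The labels do not name the second component of the combination, its dose or the time. From outside the files, a published study of 5-Aza-CdR in these lines is known to have added vitamin C, which these data cannot check. No untreated cells were analysed here, so the contrast is the combination minus 5-Aza-CdR alone.

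Total RNA was labelled as biotinylated cRNA for Illumina bead arrays, and values are log2 levels with 1 value per symbol. The median level of the arrays lay between 8.04 and 8.62. HCT116 has values for 17290 symbols, HL60 and SNU398 for 19402. Both HCT116 replicate 2 arrays list 4938 symbols at 0, against 9 on each replicate 1 array, and these zeros were taken as not measured. The myeloid markers MPO and ELANE lay between 14.94 and 15.87 in HL60 and between 7.47 and 7.77 in SNU398, and CD33 lay between 8.91 and 12 in HL60, 6.79 and 9.07 in HCT116, and 7.57 and 7.76 in SNU398. The epithelial keratin KRT19 lay between 11.24 and 13.14 in HCT116 against 7.55 to 7.76 in the other lines. The other markers listed for HCT116 did not set it apart from SNU398: CDX2 was higher in SNU398 (9.16 to 9.54) than in HCT116 (8.48 to 8.60), and EPCAM was at 8.16 to 12.16 in HCT116 and 10.90 to 11.47 in SNU398. The liver markers did not set SNU398 apart: ALB was at 8.17 to 8.27 there, 8.05 to 8.55 in HCT116 and 8.38 to 8.99 in HL60, and SERPINA1 at 7.67 to 7.76 against 10.84 to 11.56 in HL60, and AFP was not analysed here. The number of arrays limits the precision, and the labels do not say whether arrays with different replicate numbers came from separate cultures, so a p-value covers only the spread between these arrays, which may be technical.

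**Figure D1:**
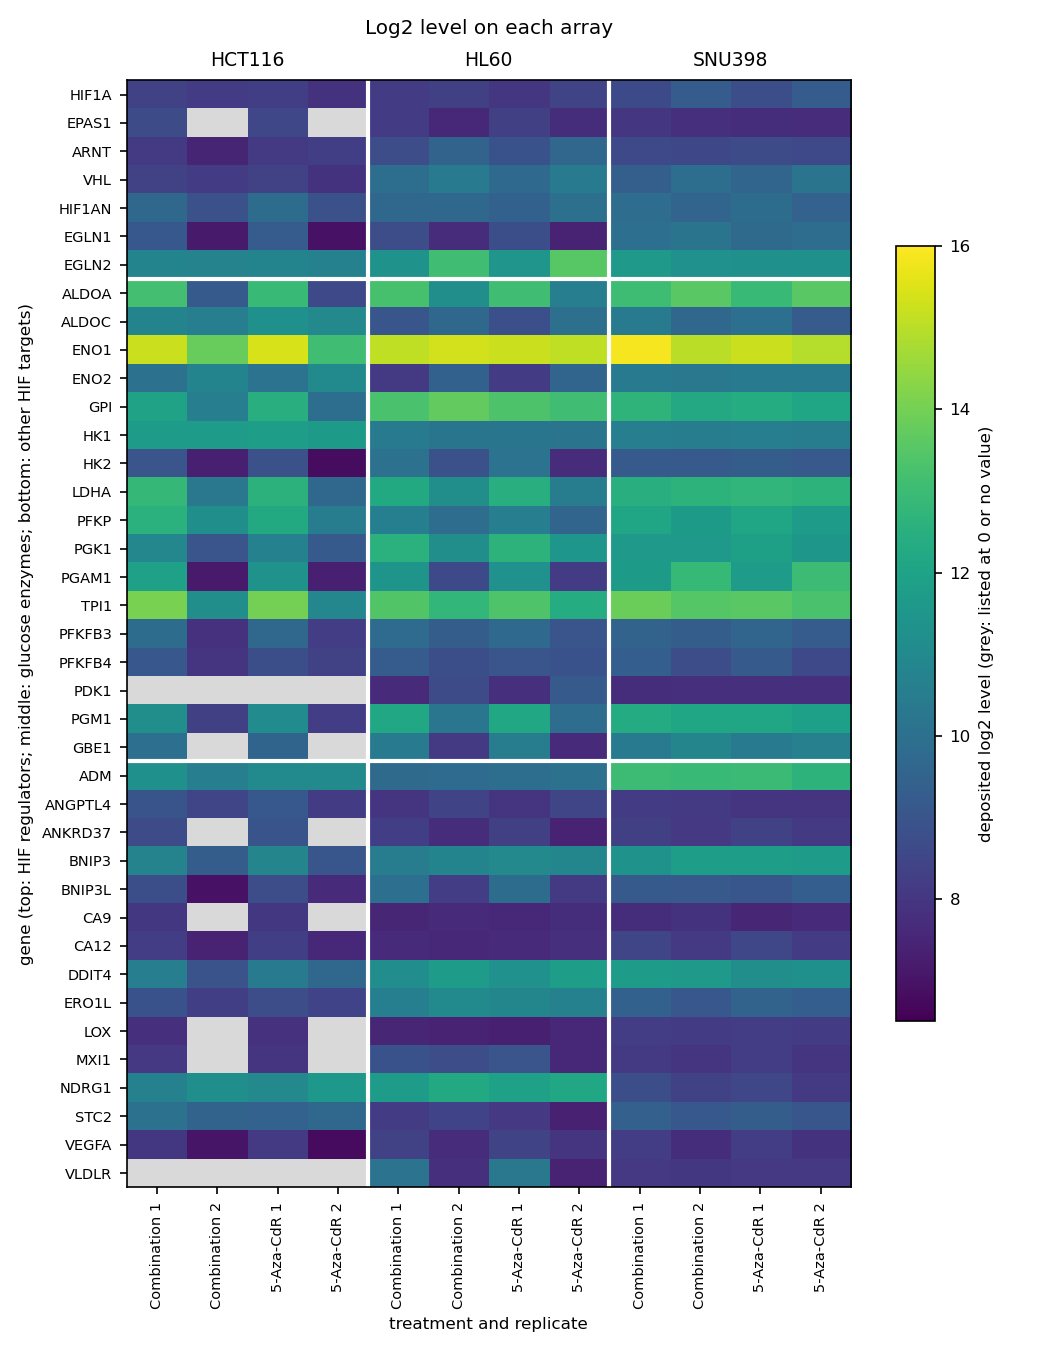
Deposited log2 level of the 39 genes (rows, by role) on each of the 12 arrays (columns, by line, treatment and replicate); grey cells are listed at 0 or have no value. Columns with the same line and replicate number resemble each other, and the replicate 2 columns of HCT116 are darker for most glycolytic enzymes, where the median gap to replicate 1 was -1.85.

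Levels were compared first between replicate numbers, because that spread sets what a treatment difference can be read against. In HCT116 the second replicate lay below the first for 29 of 31 members (93.5%), against 89.0% of all genes, with a median gap of -1.17 for members and -1.07 for all genes. The widest gaps were in glycolytic enzymes: PGAM1, which interconverts phosphoglycerates, had a mean log2 gap of -4.38 and the muscle-type aldolase ALDOA of -4.15. In HL60 the gap ran in both directions, between -2.98 (PGAM1) and 1.87 (EGLN2), with a median of -0.81 for the 17 enzymes and 0.00 for all genes. In SNU398 it was smaller: 1 of 39 members, PGAM1 at 1.25, had a gap over 1.

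The gap between replicates was larger than the mean difference between treatments for 28 of 31 members in HCT116, 33 of 39 in HL60 and 30 of 39 in SNU398. Over all genes it was larger for 11373 of 12349, 15078 of 19402 and 13303 of 19402. Arrays with the same replicate number tracked each other, so a difference was also taken within each pair of a combination array and the 5-Aza-CdR array of its number.

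**Figure D2:**
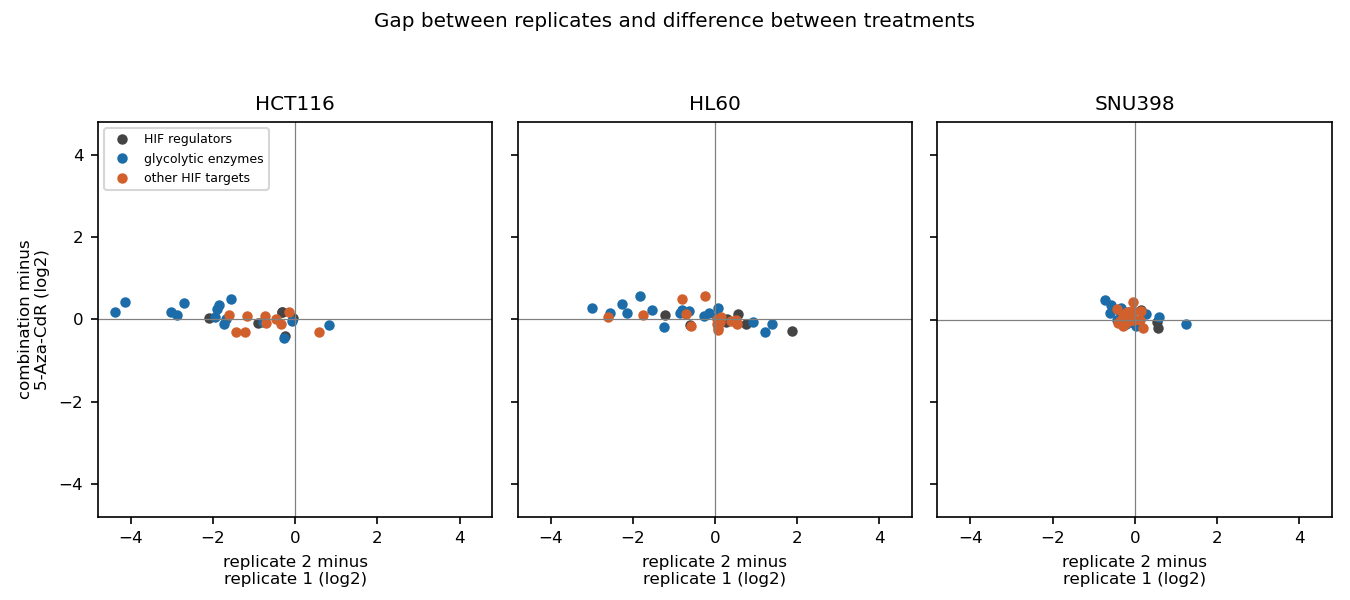
For each gene, the mean gap between replicates (x axis, replicate 2 minus replicate 1, log2) against the difference between treatments (y axis, combination minus 5-Aza-CdR, log2), with both axes on the same scale and 1 point per gene coloured by role. Points spread along the x axis to -4.38 in HCT116 and stay between -0.44 and 0.57 on the y axis in every line.

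Few of these genes differed between the combination and 5-Aza-CdR alone. Under limma fitted without pairing, 0 of 31 members in HCT116, 0 of 39 in HL60 and 0 of 39 in SNU398 passed an adjusted p of 0.05, as did 0% of all genes in each line; at an unadjusted p under 0.05 the counts were 0 members in each line and 18, 26 and 32 genes in all. The fit to all 6 pairs also called 0 genes in each line, with 1195, 1417 and 429 at an unadjusted p under 0.05. Among members that count was 4 of 31 in HCT116 (12.9%, against 9.68% of all genes). It was 0 of 39 in HL60 (0% against 7.30%) and 1 of 39 in SNU398 (2.56% against 2.21%). Both fits share 1 spread per gene over the lines, so the spread of HCT116 and HL60 enters their SNU398 tests. A limma fit to the 2 pairs of a single line was also run, chosen when its calls were already known. It called 0 of 31 members in HCT116 (0.202% of all genes, 0.170% higher and 0.0324% lower) and 0 of 39 in HL60 (0% of all genes). In SNU398 it called 2 of 39 members (5.13%, against 3.66% of all genes). The 2 members, the brain-type aldolase ALDOC and the stress-induced mTORC1 inhibitor DDIT4, were both higher with the combination.

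Over the members the median difference was 0.04 for HCT116 (all genes 0.03), 0.05 for HL60 (all genes 0.02) and 0.00 for SNU398 (all genes 0.00). By role, the enzymes had medians of 0.12 for HCT116, 0.16 for HL60 and 0.00 for SNU398, and the other targets -0.03, -0.02 and -0.02. Among members tested in SNU398, 17 of 39 were above 0 in both pairs and 12 below in both (43.6% and 30.8%), beside 29.6% and 30.7% of all genes. In HL60 the counts were 9 of 39 above and 12 below (23.1% and 30.8%), beside 28.0% and 23.8% of all genes. In HCT116 they were 9 of 31 above and 6 below (29.0% and 19.4%), beside 30.0% and 26.4% of all genes. Of the 10 other HIF targets tested in HCT116, 0 were above 0 in both pairs and 2 below.

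Transcripts of the HIF regulators differed little between treatments. HIF1A, the oxygen-labile alpha subunit, had levels of 8.39 and 8.16 with the combination against 8.28 and 7.88 with 5-Aza-CdR in HCT116, 8.16 and 8.31 against 8.0 and 8.44 in HL60, and 8.65 and 9.25 against 8.80 and 9.25 in SNU398. Groups overlapped throughout, and the differences were 0.19 for HCT116, 0.02 for HL60 and -0.07 for SNU398. EPAS1, the second alpha subunit, was at 8.20 and 7.54 with the combination against 8.29 and 7.73 in HL60, and at 7.99 and 7.79 against 7.76 and 7.70 in SNU398. In HCT116 it had a value on replicate 1 alone, 8.66 with the combination against 8.53, and is listed at 0 on replicate 2. The combination arrays of SNU398 both lay above the 5-Aza-CdR arrays, and those of HL60 overlapped them. ARNT, the partner subunit, had levels of 8.12 and 7.50 with the combination against 8.13 and 8.28 in HCT116, 8.76 and 9.52 against 8.89 and 9.63 in HL60, and 8.59 and 8.56 against 8.69 and 8.58 in SNU398. Its HCT116 combination arrays were both below the 5-Aza-CdR arrays, but the first pair differed by -0.01 and the second by -0.78 (adjusted p = 0.66, limma, pairs of HCT116).

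VHL, which marks hydroxylated HIF for destruction, stood at 8.39 and 8.19 with the combination against 8.33 and 7.90 in HCT116, at 9.93 and 10.45 against 9.74 and 10.36 in HL60, and at 9.37 and 9.95 against 9.60 and 10.14 in SNU398. Both SNU398 pairs were below 0 (-0.23 and -0.19), but the groups overlapped and the adjusted p was 0.19 (limma, pairs of SNU398). HIF1AN, the asparaginyl hydroxylase, was at 9.68 and 8.86 with the combination against 9.85 and 8.87 in HCT116, at 9.69 and 9.67 against 9.45 and 10.02 in HL60, and at 9.90 and 9.59 against 9.85 and 9.49 in SNU398. It overlapped in every line.

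EGLN1, the main HIF prolyl hydroxylase and itself a HIF target, had levels of 9.12 and 7.19 with the combination against 9.25 and 6.97 in HCT116, 8.75 and 7.70 against 8.79 and 7.43 in HL60, and 9.98 and 10.17 against 9.80 and 9.89 in SNU398. The SNU398 groups did not overlap, with pairs of 0.18 and 0.28, and the mean difference of 0.23 had an adjusted p of 0.16 (limma, pairs of SNU398). EGLN2, a second prolyl hydroxylase of HIF, was at 10.77 and 10.76 with the combination against 10.77 and 10.69 in HCT116, at 11.38 and 13.08 against 11.47 and 13.53 in HL60, and at 11.60 and 11.32 against 11.28 and 11.26 in SNU398. Its SNU398 combination arrays were both above the 5-Aza-CdR arrays, by 0.06 in the closer pair, with an adjusted p of 0.29 (limma, pairs of SNU398). No regulator passed the test in any line, and their median difference was 0.04 for HCT116, -0.06 for HL60 and 0.08 for SNU398.

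Among the enzymes, ALDOC was called in SNU398 only in the fit to the pairs of that line. Aldolase splits fructose 1,6-bisphosphate, and ALDOC is its brain-type isozyme and a HIF target. Its SNU398 levels were 10.45 and 9.72 with the combination against 9.97 and 9.24 with 5-Aza-CdR. The groups overlapped because replicate 2 was lower in both treatments, while each pair differed by 0.48. That is a 1.39-fold higher level (log2 0.48, SE 0.08, adjusted p = 0.0031, limma, pairs of SNU398, higher in 2 of 2 pairs). The 2 pair differences had an SD of 0.00, so this SE and p rest mostly on the spread that limma takes from other genes. The unpaired fit and the fit to all 6 pairs each gave it an adjusted p of 1.00. Leaving out 1 array moved the unpaired difference to 0.12 (without combination replicate 1), 0.11 (without 5-Aza-CdR replicate 2) or 0.84 (without either other array). Each omission leaves 1 array without its pair, so these values carry part of the mean gap of -0.73 between the SNU398 replicates.

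In HCT116 the ALDOC values lay the other way without passing the test. They were at 10.79 and 10.57 with the combination against 11.26 and 10.97, and both combination arrays lay below both 5-Aza-CdR arrays. The pairs were -0.47 and -0.41, and the mean of -0.44 did not pass the test (adjusted p = 0.61, limma, pairs of HCT116). In HL60 the levels were 9.04 and 9.67 against 8.82 and 10.02, with pairs of opposite sign. The response in HCT116 minus that in SNU398 was -0.92 (SE 0.22 in the fit to all 6 pairs), with an adjusted p of 0.76 in that fit and 1.00 unpaired, so a difference in response between the lines was not established.

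The letters of the ALDOC promoter, and of the promoter of DDIT4, are given because these genes carry the SNU398 calls. HIF binds sites with the core ACGTG or GCGTG. Each run below is the 250 bases before the RefSeq transcript start on GRCh38.p14, read on the gene's own strand, with every ACGTG and GCGTG, and their reverse complements CACGT and CACGC, in capitals. The ALDOC window is chr17:28576896-28577145 on the minus strand and the DDIT4 window is chr10:72273674-72273923 on the plus strand.
ALDOC: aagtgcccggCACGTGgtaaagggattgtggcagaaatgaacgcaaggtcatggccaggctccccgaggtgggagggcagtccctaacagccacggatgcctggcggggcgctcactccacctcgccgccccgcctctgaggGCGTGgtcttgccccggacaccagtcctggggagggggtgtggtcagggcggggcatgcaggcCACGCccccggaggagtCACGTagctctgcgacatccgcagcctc
DDIT4: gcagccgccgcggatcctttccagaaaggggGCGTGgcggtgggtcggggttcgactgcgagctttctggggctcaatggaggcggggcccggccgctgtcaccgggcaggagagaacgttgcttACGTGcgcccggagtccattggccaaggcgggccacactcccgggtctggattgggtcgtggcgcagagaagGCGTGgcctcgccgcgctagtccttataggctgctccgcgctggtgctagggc
ALDOC has an ACGTG core on each strand where the letters CACGTG read the same both ways, another near the start, and 2 GCGTG matches. DDIT4 has 1 ACGTG match and 2 GCGTG matches. In windows of 300 bases (250 before to 50 after the start), ACGTG was found on either strand in 28 of 59 promoters of the 35 members that matched the RefSeq table (47.5%), against 7518 of 35116 promoters of all genes (21.4%). GCGTG was found in 28 of 59 (47.5%) against 36.5%. A match describes letters and is not a measured binding site, and these genes had been listed as HIF targets and glycolytic enzymes.

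Other glycolytic enzymes of SNU398 had smaller differences. TPI1, which interconverts the triose phosphates, was at 13.87 and 13.51 with the combination against 13.56 and 13.26. Both pairs were above 0 (0.31 and 0.25), the groups overlapped, and the adjusted p was 0.075 (limma, pairs of SNU398). ENO1, the ubiquitous enolase, was at 15.87 and 15.03 against 15.25 and 14.94, with pairs of 0.62 and 0.09 and an adjusted p of 0.085 in the same fit. One array, the first combination replicate, stood above the other 3 for ENO1.

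Enzymes often used as HIF readouts were not called in that line. LDHA, which makes lactate from pyruvate, was at 12.47 and 12.63 with the combination against 12.75 and 12.66 in SNU398, so both combination arrays were lower (pairs of -0.28 and -0.03). HK2, the inducible hexokinase, was at 9.20 and 9.18 against 9.30 and 9.17, and PGK1, the first ATP-producing step, at 11.62 and 11.59 against 11.91 and 11.51. PDK1, the kinase that closes pyruvate entry to the mitochondria, was at 7.74 and 7.81 against 7.79 and 7.78, below the 25th percentile of values on all 4 arrays. None of these 4 enzymes passed the test, and the groups of HK2, PGK1 and PDK1 overlapped. Over the 17 enzymes of SNU398, 7 were above 0 in both pairs (41.2%) and 3 below 0 in both (17.6%), beside 29.6% and 30.7% of all genes.

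In HCT116 the enzymes with the smallest p were PFKP, ALDOC and ALDOA. PFKP, the platelet-type phosphofructokinase, was at 12.57 and 11.24 with the combination against 12.28 and 10.51. ALDOA was at 13.17 and 9.19 against 12.92 and 8.60. Both genes were higher with the combination in each pair, by 0.29 and 0.73 for PFKP and by 0.25 and 0.59 for ALDOA, and in both the groups overlapped across the gap between replicates. The adjusted p were 0.54 and 0.63 (limma, pairs of HCT116).

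LDHA in HCT116 was at 12.84 and 10.32 with the combination against 12.62 and 9.72, and HK2 at 9.0 and 7.34 against 8.84 and 6.80. Both were higher in each pair, with mean differences of 0.41 and 0.35 that did not pass (adjusted p = 0.63 and 0.69, limma, pairs of HCT116). PGK1 was at 10.90 and 9.0 against 10.67 and 9.20, with pairs of opposite sign. PDK1 has no HCT116 value, and GBE1, the glycogen branching enzyme, is listed at 0 on both replicate 2 arrays. Of the 15 enzymes measured on 4 arrays, 6 were above 0 in both pairs (40%) and 2 below (13.3%), beside 30.0% and 26.4% of all genes.

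In HL60 the enzymes with the smallest p were ALDOA, HK2 and PDK1. ALDOA was at 13.22 and 11.21 with the combination against 13.09 and 10.58, and HK2 at 10.09 and 8.85 against 10.10 and 7.71. HK2 differed by 0.00 in the first pair and 1.14 in the second, where the 5-Aza-CdR array was the lowest of the 4. PDK1 was at 7.68 and 8.68 against 7.78 and 9.20, lower in both pairs. LDHA was at 12.27 and 11.18 against 12.48 and 10.52, with pairs of -0.20 and 0.66, and PGK1 at 12.57 and 11.19 against 12.63 and 11.50, lower in both pairs. Groups overlapped for all 5 genes, and the adjusted p were 0.89 to 0.91 (limma, pairs of HL60). The median over the 17 enzymes was 0.00 in the first pair and 0.33 in the second, against 0.00 and 0.05 over all genes, and the difference between pairs was not tested. Over all genes of HL60 the second pair was also the wider, with an SD of 0.552 against 0.158 in the first.

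**Figure D3:**
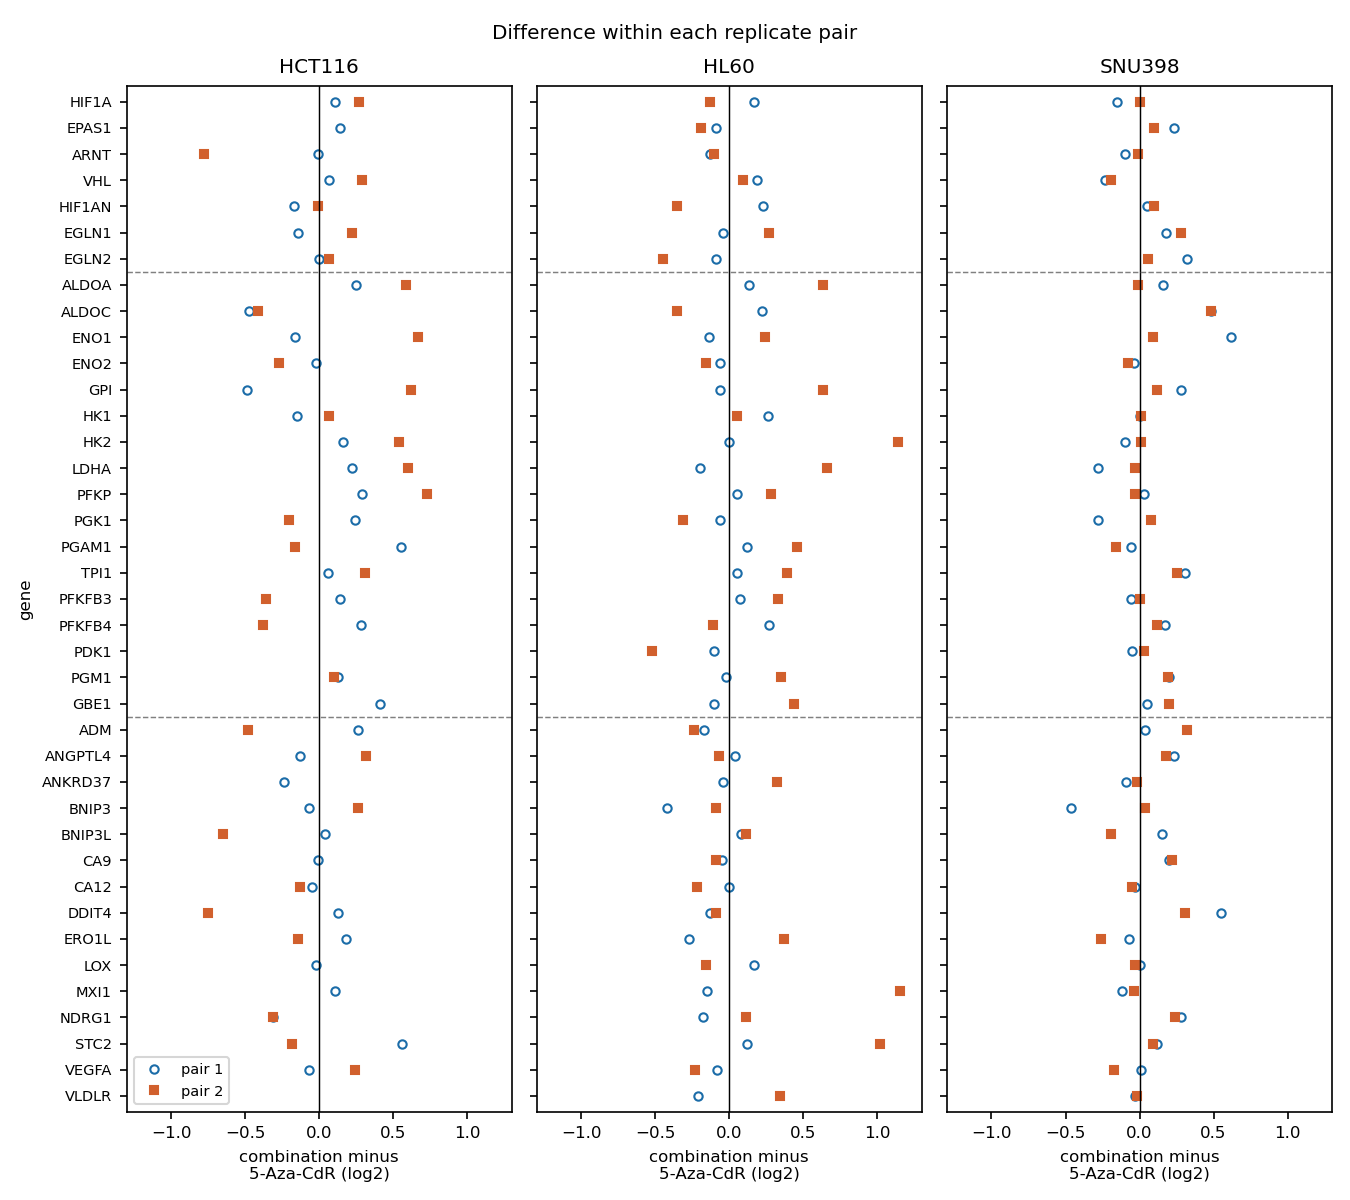
Combination minus 5-Aza-CdR (log2, x axis) within each replicate pair, for the 39 genes (y axis, regulators above the upper dashed line, enzymes between the lines, other targets below) in the 3 lines. In SNU398 the pairs lie close together for ALDOC (0.48 and 0.48), while in HL60 the second pair departs from the first for HK2 (0.00 and 1.14).

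Of the other HIF targets, DDIT4 was called in SNU398 only in the fit to the pairs of that line. DDIT4 (REDD1) restrains mTORC1 and is induced by hypoxia and by other stresses. Its SNU398 levels were 11.75 and 11.59 with the combination against 11.20 and 11.28 with 5-Aza-CdR, and both combination arrays lay above both 5-Aza-CdR arrays. The level was 1.34-fold higher (log2 0.43, SE 0.09, adjusted p = 0.012, limma, pairs of SNU398, higher in 2 of 2 pairs). The 2 pair differences had an SD of 0.17, and this SE and p also rest on the spread that limma takes from other genes. The unpaired fit and the fit to all 6 pairs each gave an adjusted p of 1.00. In RNA from whole cultures, more expressing cells and more RNA per cell cannot be told apart.

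DDIT4 was not called in the other lines. In HCT116 it was at 10.57 and 8.92 with the combination against 10.43 and 9.67, with pairs of 0.13 and -0.75, and in HL60 at 11.17 and 11.73 against 11.30 and 11.82, with pairs of -0.13 and -0.09. Groups overlapped in both lines. The response in HCT116 minus that in SNU398 was -0.73, with an adjusted p of 0.76 in the fit to all 6 pairs and 1.00 unpaired.

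NDRG1, a differentiation-linked gene that is strongly induced by hypoxia and by iron chelation, also had pairs of opposite sign between those lines. It was at 8.80 and 8.36 with the combination against 8.52 and 8.11 in SNU398, higher by 0.28 and 0.24. In HCT116 it was at 10.66 and 11.24 against 10.97 and 11.55, with a difference of -0.31 in each pair. In HL60 it was at 11.75 and 12.28 against 11.92 and 12.17, with pairs of opposite sign. Groups overlapped in all 3 lines, and limma on the pairs gave an adjusted p of 0.098 for SNU398, 0.72 for HCT116 and 0.99 for HL60. The response in HCT116 minus that in SNU398 was -0.57, with an adjusted p of 0.76 in the fit to all 6 pairs.

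CA9, the membrane carbonic anhydrase used as a hypoxia marker, was near the low end of the arrays. It was at 7.73 and 7.89 with the combination against 7.52 and 7.67 in SNU398, where both combination arrays lay above both others (0.20 and 0.22, adjusted p = 0.19, limma, pairs of SNU398). All 4 of these values were below the 25th percentile of their arrays, which lay between 7.88 and 7.92. It was at 7.53 and 7.64 against 7.58 and 7.73 in HL60, and in HCT116 at 8.04 against 8.05 on replicate 1 and listed at 0 on replicate 2.

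VEGFA, the main angiogenic growth factor under HIF control, overlapped between treatments in every line. It was at 8.04 and 7.03 with the combination against 8.10 and 6.78 in HCT116, at 8.36 and 7.70 against 8.43 and 7.93 in HL60, and at 8.24 and 7.74 against 8.22 and 7.91 in SNU398. All 4 VEGFA values of HCT116 were below the 25th percentile of their arrays, which lay between 7.33 and 8.15. BNIP3, a mitophagy receptor, was at 10.74 and 9.31 against 10.81 and 9.05 in HCT116, at 10.54 and 10.77 against 10.96 and 10.86 in HL60, and at 11.36 and 11.81 against 11.81 and 11.76 in SNU398. In HL60 both BNIP3 combination arrays lay below both 5-Aza-CdR arrays (pairs -0.42 and -0.09, adjusted p = 0.89, limma, pairs of HL60).

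The remaining targets with the smallest p in their line were STC2 and MXI1 in HL60 and BNIP3L in HCT116. STC2, a secreted glycoprotein, was at 8.20 and 8.41 with the combination against 8.08 and 7.39 in HL60, so the groups did not overlap, with pairs of 0.12 and 1.02. MXI1, an antagonist of MYC, was at 8.88 and 8.73 against 9.02 and 7.58, with pairs of -0.15 and 1.15. In both genes the second 5-Aza-CdR array was the low value, and both adjusted p were 0.89 (limma, pairs of HL60). BNIP3L, a second mitophagy receptor, was at 8.77 and 6.98 against 8.73 and 7.62 in HCT116, with pairs of 0.04 and -0.65 (adjusted p = 0.74, limma, pairs of HCT116).

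The members not named singly did not pass the test in any line. PDK1 and VLDLR had no value in HCT116, and EPAS1, GBE1, ANKRD37, CA9, LOX and MXI1 are listed at 0 on its replicate 2 arrays, which leaves 31 members tested there. Member differences ran from -0.44 to 0.51 for HCT116 (standard errors 0.22 to 0.24 in the pairs of the line), from -0.31 to 0.57 for HL60 (0.18 to 0.36) and from -0.21 to 0.48 for SNU398 (0.08 to 0.11).

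Across the members, both combination arrays were above both 5-Aza-CdR arrays for 6 of 39 members in SNU398 (15.4%, against 12.6% of all genes), 2 of 39 in HL60 (5.13% against 8.37%) and 0 of 31 in HCT116 (0% against 0.850%). Both were below for 2 of 39 in SNU398 (5.13% against 12.1%), 3 of 39 in HL60 (7.69% against 6.34%) and 2 of 31 in HCT116 (6.45% against 5.43%). At an unadjusted p under 0.05 in the pairs of SNU398, 11 of 39 members were higher (8.69% of all genes were) and 1 was lower (7.61% of all genes were). In either direction the count was 12 of 39 (30.8%, against 16.3% of all genes). In HCT116 that count was 1 of 31 (8.37% of all genes), and in HL60 0 of 39 (0.948% of all genes).

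Further genes of the pathway, listed from textbook knowledge, were read in the same way. In the pairs of SNU398, 1 of 12 further HIF pathway regulators, 1 of 23 further glycolysis genes and 1 of 33 further HIF targets were higher, 1 of 33 further HIF targets was lower (2.43% and 1.23% of all genes), and none was called in HCT116 or HL60. SLC16A3, the lactate exporter MCT4, was at 9.78 and 9.59 with the combination against 9.33 and 9.25 (log2 0.39, adjusted p = 0.014, limma, pairs of SNU398). OS9, a lectin of endoplasmic reticulum quality control that has been described as binding HIF1A and EGLN proteins, was at 9.83 and 9.72 against 9.36 and 9.44 (log2 0.38, adjusted p = 0.021).

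PLOD1, a collagen lysyl hydroxylase that uses ascorbate, was at 11.73 and 11.35 with the combination against 11.42 and 10.90 in SNU398 (log2 0.38, adjusted p = 0.019, limma, pairs of SNU398). TFRC, the transferrin receptor, was at 12.58 and 12.79 against 12.99 and 13.10 and was lower (log2 -0.36, adjusted p = 0.022). The groups of SLC16A3, OS9 and TFRC did not overlap in SNU398 and those of PLOD1 did. SLC16A3, PLOD1 and TFRC had mean differences of the opposite sign in the other lines, where none was called. The differences in HCT116 and HL60 were -0.61 and -0.01 for SLC16A3, -0.39 and -0.35 for PLOD1, and 0.45 and 0.28 for TFRC. OS9 differed by 0.22 in HCT116 and 0.04 in HL60. GAPDH and the glucose transporter SLC2A1 were among those not called, with differences of 0.19 and -0.10 in SNU398.

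Levels were then compared between the lines, with the 2 arrays of a replicate number averaged, so that each line has 2 values. ADM was lower and NDRG1 higher in HL60 than in SNU398, ERO1L was lower in HCT116 than in HL60, and no regulator or enzyme of glycolysis was called between lines. In limma on these means, 2 of 39 members were called between HL60 and SNU398 (2.56% of all genes), 1 of 31 between HCT116 and HL60 (1.94%) and 0 of 31 between HCT116 and SNU398 (0.178%). At an unadjusted p under 0.05, 2226 of 12349 genes differed between HCT116 and SNU398. HCT116 carries another set of symbols than the other lines, so a difference between HCT116 and another line cannot be told apart from a difference between array sets.

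ADM encodes adrenomedullin, a vasodilator peptide and a classical HIF target. Its replicate means were 9.85 and 9.93 in HL60 against 12.98 and 12.79 in SNU398, and 11.15 and 10.81 in HCT116. The level in HL60 was 7.98-fold lower than in SNU398 (log2 -3.00, SE 0.24, adjusted p = 0.017, limma on replicate means). HCT116 lay between them, with a log2 difference of -1.91 from SNU398 (adjusted p = 0.083) and of 1.09 from HL60 (adjusted p = 0.10), and neither passed. Without any 1 of the 4 replicate means the ADM difference between HL60 and SNU398 stayed between -3.09 and -2.90 with an adjusted p of 0.077 to 0.37, a trended, robust variance gave 0.068, and zeros kept as 0 gave 0.086.

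NDRG1 ordered the lines the other way, with replicate means of 11.84 and 12.23 in HL60, 10.81 and 11.40 in HCT116, and 8.66 and 8.24 in SNU398. It was 12-fold higher in HL60 than in SNU398 (log2 3.58, SE 0.34, adjusted p = 0.022, limma on replicate means). HCT116 exceeded SNU398 by 2.66 (adjusted p = 0.083) and fell short of HL60 by a difference of -0.93 (adjusted p = 0.21). Without any 1 replicate mean, the difference between HL60 and SNU398 was 3.37 to 3.80 with an adjusted p of 0.082 to 0.36, and zeros kept as 0 gave 0.10.

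ERO1L, the endoplasmic reticulum oxidase that forms disulfide bonds, had replicate means of 8.82 and 8.35 in HCT116 against 10.74 and 10.88 in HL60, and 9.50 and 9.21 in SNU398. It was lower in HCT116 than in HL60 by a log2 difference of -2.22 (SE 0.28, adjusted p = 0.041, limma on replicate means). HL60 exceeded SNU398 by 1.45 (adjusted p = 0.082). The call was lost without replicate 2 of HCT116 (adjusted p = 0.076), without replicate 1 of HL60 (0.068) or without its replicate 2 (0.19). It was also lost among genes above 0 on all 12 arrays (0.070), with a mean log2 of at least 9 (0.098), with a trended, robust variance (0.12) and with zeros kept as 0 (0.17).

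The promoters of ADM and ERO1L are shown because they are 2 of the 3 genes with a call between the lines, and NDRG1 is not shown. They are the 250 bases before the start on GRCh38.p14 from RefSeq, marked as above, at chr11:10304823-10305072 on the plus strand for ADM and chr14:52695559-52695808 on the minus strand for ERO1L, whose current symbol is ERO1A.
ADM: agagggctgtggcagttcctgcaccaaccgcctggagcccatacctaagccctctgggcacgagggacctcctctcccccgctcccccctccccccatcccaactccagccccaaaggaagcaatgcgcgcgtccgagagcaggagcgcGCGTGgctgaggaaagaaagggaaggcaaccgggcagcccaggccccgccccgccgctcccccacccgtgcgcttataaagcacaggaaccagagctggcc
ERO1L: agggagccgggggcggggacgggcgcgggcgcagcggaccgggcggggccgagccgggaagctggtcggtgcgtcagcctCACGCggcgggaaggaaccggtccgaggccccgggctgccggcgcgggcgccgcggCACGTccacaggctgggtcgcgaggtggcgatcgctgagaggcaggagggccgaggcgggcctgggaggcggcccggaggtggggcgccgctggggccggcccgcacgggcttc
ADM holds 1 GCGTG match and no ACGTG in this window, and ERO1L 1 of each.

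Among the regulators no level differed between lines at the adjusted threshold. VHL came closest, with replicate means of 8.36 and 8.04 in HCT116 against 9.84 and 10.41 in HL60 (log2 -1.92, adjusted p = 0.073, limma on replicate means) and 9.48 and 10.04 in SNU398 (log2 -1.56, adjusted p = 0.16). ARNT was lower in HCT116 (8.12 and 7.89) than in HL60 (8.83 and 9.57) without overlap, with an adjusted p of 0.14. HIF1A was at 8.34 and 8.02 in HCT116 and 8.08 and 8.37 in HL60, below the 8.72 and 9.25 of SNU398 without overlap, with adjusted p of 0.27 and 0.35. The share of all genes whose replicate means do not overlap between lines was not counted, so the lack of overlap carries no weight of its own. EGLN1 was at 9.18 and 7.08 in HCT116 and 8.77 and 7.56 in HL60, against 9.89 and 10.03 in SNU398, and EGLN2 at 10.77 and 10.73 in HCT116 against 11.43 and 13.30 in HL60. Neither EGLN1 nor EGLN2 was called between any 2 lines.

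Among the enzymes HK1, the constitutive hexokinase, had the smallest p. Its replicate means were 11.77 and 11.70 in HCT116 against 10.33 and 10.18 in HL60 (log2 1.49, SE 0.21, adjusted p = 0.054, limma on replicate means) and 10.58 and 10.52 in SNU398 (log2 1.19, adjusted p = 0.13). ALDOC was at 11.03 and 10.77 in HCT116, above the 8.93 and 9.84 of HL60 (adjusted p = 0.15) and the 10.21 and 9.48 of SNU398 (adjusted p = 0.29). GPI, the phosphoglucose isomerase, was at 12.21 and 10.25 in HCT116 against 13.32 and 13.39 in HL60 (adjusted p = 0.17), and 12.54 and 12.19 in SNU398.

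PGK1 was at 10.78 and 9.10 in HCT116 against 11.77 and 11.55 in SNU398 (adjusted p = 0.29, limma on replicate means). PFKP was at 10.58 and 9.73 in HL60 against 12.11 and 11.68 in SNU398, and the neuronal enolase ENO2 at 8.14 and 9.52 in HL60 against 10.42 and 10.36 in SNU398. The replicate means of the 2 lines did not overlap for either gene, but both adjusted p were 0.30, and the share of all genes without overlap was not counted. STC2 was at 9.75 and 9.61 in HCT116 against 8.14 and 7.90 in HL60 (log2 1.66, adjusted p = 0.054), and DDIT4 at 10.50 and 9.29 in HCT116 against 11.48 and 11.44 in SNU398 (adjusted p = 0.22).

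**Figure D4:**
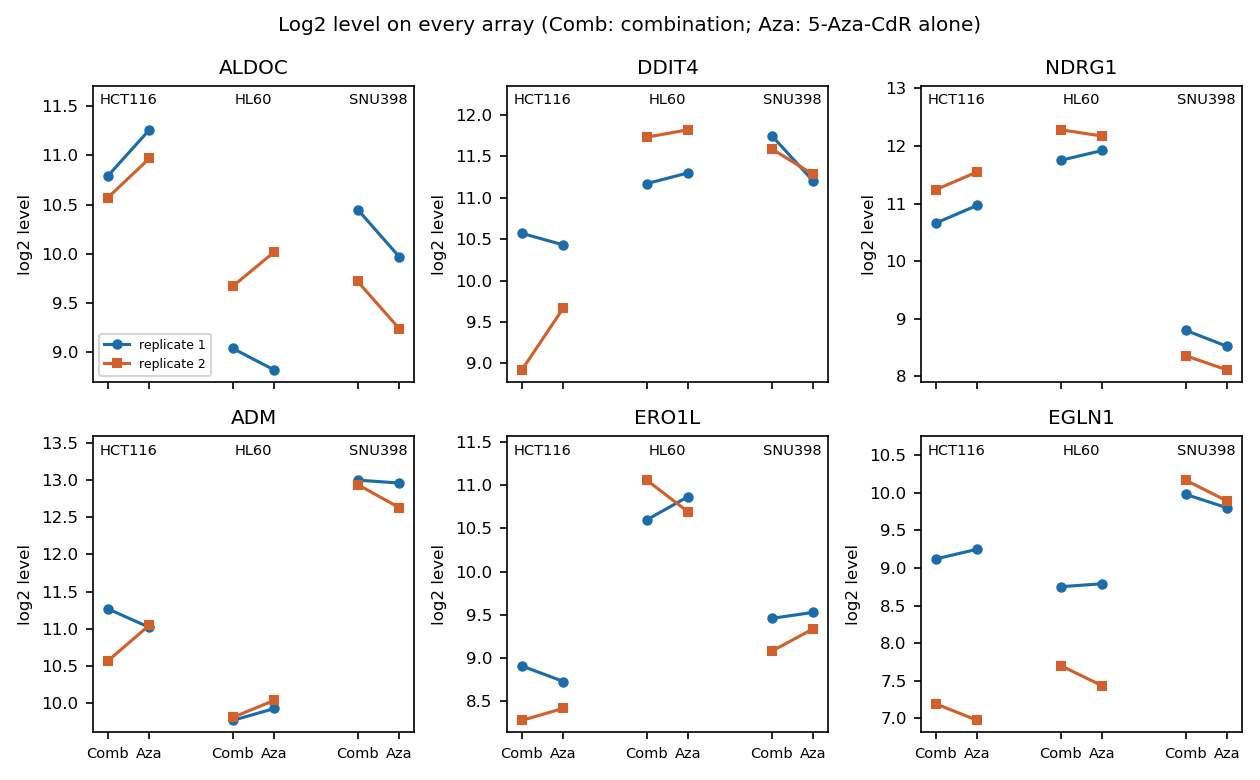
Log2 level (y axis) of 6 genes on every array, with the combination (Comb) left of 5-Aza-CdR alone (Aza) in each line, and a line joining the 2 arrays of a replicate. ADM is highest in SNU398 (12.63 to 13.00) and NDRG1 in HL60 (11.75 to 12.28), and ALDOC slopes in opposite directions in HCT116 and SNU398.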

How the data were processed

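RNA was measured on Illumina bead arrays, per the labels' protocols. The values are the deposited log2 expression of 1 value per symbol, read as log2 from their range; the submitters' processing notes name limma, while the sources used here give neither its version nor the background correction and normalization. Zeros were treated as not measured. A bead-level table with 44 columns of per-sample values for 11 arrays names no sample and was not used.

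Models were fitted with limma 3.58.1 under R 4.3.3, using lmFit with eBayes, to all genes over 12 arrays (6 residual degrees of freedom), to the 6 pair differences (3) and to the 2 pair differences of 1 line (1). In the fit to the pairs of 1 line, each SE and p leans on the spread that limma takes from other genes. Levels between lines used means of the arrays sharing a replicate number. Tests were two-sided, with Benjamini-Hochberg adjustment over all genes of a contrast and calls at 0.05. The fits were tested on simulated data with the array noise of the SNU398 pairs in every line and genes changed in SNU398 alone. Every simulated gene had the same noise SD, so the simulation cannot test the fits where the spread differs between genes. This limit bears most on the fit to the 2 pairs of a line. The fits were also not tested at the wider spread of HCT116 and HL60. Replicate numbers were taken to pair the arrays, because deviations from the group means of same-numbered arrays correlated at 0.907 in HCT116, 0.883 in HL60 and 0.841 in SNU398.

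The members, the lists of further genes and the fit to pairs of 1 line were chosen with earlier results of these data known. Array values are printed for the regulators, called members, the 3 members of each other role group with the smallest p in a line, and CA9, VEGFA, BNIP3, NDRG1, PDK1, LDHA, PGK1 and HK2. For levels between lines the 3 members per role group with the smallest p in each contrast are named, and of the further genes those called, with GAPDH and SLC2A1 added after their values were seen. Members were matched by symbol; promoter sequences are from RefSeq (GRCh38.p14).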

Additional observations from a re-analysis of the deposited data

How the results depend on the processing

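With 2 arrays per group and replicate gaps up to 4.38 on the log2 scale, the unpaired fit could not detect small differences of many members in any line. Its standard errors for members ran from 0.19 to 1.95 in each line. Within the pairs of a line they were 0.22 to 0.24 in HCT116, 0.18 to 0.36 in HL60 and 0.08 to 0.11 in SNU398. No called difference of a member changed sign, but uncalled ones did. The replicate block by itself changed no call between treatments: the fit to all 6 pairs called 0 genes in each line, as did the unpaired fit to 12 arrays and to the 4 arrays of a line (added after seeing the data). Calls came where the block and a single line were combined: the pairs of HCT116 alone called 25 genes, and the pairs of SNU398 alone 710 genes and 2 members. Variants of the pairs of 1 line, added after seeing the data, called 20 (trended, robust variance), 28 (arrays centred) and 2 (mean log2 of at least 9) genes in HCT116, and 0 after quantile normalization. In SNU398 they called 761, 738 and 482 genes, and 845 after quantile normalization, with 3, 2, 3 and 3 members. ALDOC (adjusted p 0.0011 to 0.0031) and DDIT4 (0.0050 to 0.018) were called in each of these 5 forms for SNU398 (limma). The added member was NDRG1 with a trended variance (0.045) and ENO1 after quantile normalization (0.014) or the level filter (0.036).

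The median over members was 0.04 as reported in HCT116. There it was 0.05 (centred or quantile), 0.04 (mean log2 of at least 9) and 0.06 (replicate 1 arrays alone, added after seeing the data). In SNU398 it moved to -0.01 (centred or quantile) and 0.08 (mean log2 of at least 9), paired or not. Leaving out 1 array gave medians of -0.58 to 0.52 in HCT116, -0.05 to 0.18 in HL60 and -0.03 to 0.10 in SNU398. Each such fit leaves 1 array without its pair, so treatment differences fitted this way carry part of the gap between replicates. The HL60 median was -0.04 on replicate 1 arrays alone. Leaving out 1 array changed the sign of 81 of 324 values, and the other settings of 23 of 1023, all of them uncalled. Quantile normalization turned the HCT116 values of EGLN1 (0.04 to -0.06), VEGFA (0.09 to -0.08) and the regulator median (0.04 to -0.01), and HIF1A in HL60 (0.02 to -0.04, and -0.01 with arrays centred). The median of the other targets in SNU398 turned (-0.02 as reported) to 0.18 with a mean log2 of at least 9 and 0.04 among genes above 0 on all 12 arrays. The remaining turns, of BNIP3, BNIP3L, DDIT4, EGLN1 and VEGFA in HCT116 and of MXI1, HIF1AN, EGLN1 and LDHA in HL60, came on replicate 1 arrays alone, where the difference is that of pair 1.

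Counts for levels between lines changed with the setting. Taking 12 arrays as separate samples called 2219 genes and 8 members between HCT116 and SNU398 (22 and 0 as reported), 2757 and 7 between HL60 and SNU398 (497 and 2), and 3011 and 13 between HCT116 and HL60 (240 and 1). Between HCT116 and SNU398, a trended, robust variance called 0 genes, centring 272, quantile normalization 201, zeros kept as 0 called 5, and genes above 0 on all 12 arrays 88. Between HL60 and SNU398 the first 4 of these gave 211, 1303, 938 and 16 genes, with 1 member under the trended variance and 0 with zeros kept. Between HCT116 and HL60 they gave 37, 978, 626 and 7 genes with 0, 5, 4 and 0 members, and both the level filter and the genes above 0 on all 12 arrays gave 0 members. Leaving out 1 replicate gave 0 to 5068 genes and 0 to 14 members between HCT116 and SNU398, 0 genes and 0 members between HL60 and SNU398, and 0 to 3346 genes and 0 to 10 members between HCT116 and HL60. The cause of these shifts was not tested.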
